A study of Mus musculus with 10 samples.

Results

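The genes described here encode receptors with which leukocytes sense attractants. They comprise the chemokine receptor genes Ccr1, Ccr2, Ccr7, Cx3cr1 and Cxcr4, the chemokine receptor-like gene Ccrl2, and the formyl peptide receptor genes Fpr1 and Fpr2. They were chosen by name, as chemokine and formyl peptide receptors, and all 8 were found among the 56980 genes of the deposited count table. RNA-seq was done on mouse macrophages of 2 genotypes, with 5 libraries labelled as a macrophage knockout of Jaml (KO; the genotype tag of the same samples reads knockdown) and 5 from mice with Jaml intact (WT). JAML, the junctional adhesion molecule-like protein, is an immunoglobulin-superfamily protein of leukocytes. Macrophages of both genotypes had received LPS at 100 ng/ml over 8 h and then ATP at 5 mM over 30 min, and unstimulated macrophages were not analysed here. The labels give no tissue of origin, strain, age, sex or Cre line, and do not say whether each library is a separate mouse or culture; the p-values therefore rest on a library-to-library spread that may be technical only.

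In the count table the WT columns are named as in the labels, whereas the other 5 columns are headed SI, which no label explains. By elimination they were read as KO, and each direction below rests on that. Jaml could not check it, with 2 counts in KO 4, 2 counts in WT 1 and 0 in the other 8 libraries, all under a floor of 3 counts per library, or 0.132 to 0.155 CPM (counting error only). CPM are counts scaled to a common total per library after TMM correction for library composition. Totals were 19378160 to 22766319 counts in KO libraries and 19319512 to 21230317 in WT libraries. The 8 macrophage markers examined were all detected and summed to 23076 to 25066 CPM in KO and 24059 to 25618 CPM in WT. Most of that sum was Lyz2. In the test described below, 2 of them were called higher in KO (Csf1r, Cd14), 2 lower (Mertk, Fcgr1) and 4 were not called. Fcgr1 was at 59.1 ± 7.64 CPM in KO and 182 ± 10.7 CPM in WT (mean ± SD). T, B, NK and mast cell markers summed to at most 4.70 CPM per list in KO and 11.8 CPM in WT. KO 1 and KO 3 lay apart from the other KO libraries on the second principal component, at 27.6 and 37.6 against -16.6 to -5.66, and no label gives a batch. Without these libraries the 4 members reported below as changed kept their calls and directions.

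Chemokine receptors are membrane proteins with 7 spans that couple mainly to inhibitory G proteins of the Gi class, and a gradient of ligand steers the cell through phosphoinositide 3-kinase gamma and Rac. CCR1 answers inflammatory CC chemokines, CCR2 brings monocytes out of the marrow towards CCL2, CCR7 guides dendritic cells to lymph nodes, CX3CR1 binds fractalkine, and CXCR4 binds CXCL12. CCRL2 binds the attractant chemerin without signalling through G proteins. FPR1 and FPR2 recognise N-formyl peptides, which come from bacteria and from damaged mitochondria, and FPR2 also binds annexin A1 and serum amyloid A.

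Per kilobase of the gene lengths behind the authors' FPKM, the 8 receptors fell into an abundant and a scarce class in both genotypes. The lengths of Ccrl2 (4.775 kb) and Ccr2 (14.41 kb) exceeded the spans listed for these genes. Lengths may thus be too long for some receptors, and the order within a class is not settled. In CPM not divided by length, Ccrl2 stood highest in WT (515, against 376 for Fpr2) and Fpr2 in KO (351, against 288 for Ccrl2). On the scale per kilobase the formyl peptide receptors stood highest. In KO, Fpr2 was at 174 ± 7.56 and Fpr1 at 172 ± 7.33 CPM per kilobase (mean ± SD, n = 5 here and throughout), levels whose ranges overlapped. In WT, Fpr1 was at 210.2 ± 7.73 and Fpr2 at 187 ± 6.71 CPM per kilobase, with ranges that did not overlap. These levels rest on lengths of 1.324 kb for Fpr1 and 2.016 kb for Fpr2. Yet the annotated transcripts held 1275 distinct windows of 50 bases for Fpr1 and 1295 for Fpr2. In CPM not divided by length Fpr2 was above Fpr1, at 351 against 227 in KO and 376 against 278 in WT. The order of these receptors per kilobase is therefore not settled in either genotype. Ccrl2 came next, at 60.3 ± 1.48 CPM per kilobase in KO and 108 ± 4.42 in WT. Cxcr4 followed at 41.6 ± 3.77 in KO and 22.8 ± 1.04 in WT, and Ccr1 at 21.6 ± 1.95 in KO and 12.4 ± 0.889 in WT, on the same scale. The ratio of Ccrl2 to Cxcr4 thus differed between genotypes, although their order was the same. The other 3 receptors were far lower. Ccr7 was at 0.424 ± 0.190 CPM per kilobase in KO and 0.584 ± 0.104 in WT, Cx3cr1 at 0.150 ± 0.0470 in KO and 0.184 ± 0.0395 in WT, and Ccr2 at 0.0103 ± 0.00665 in KO and 0.0150 ± 0.0127 in WT. Among these, the ranges of Ccr7 and Cx3cr1 overlapped in KO and not in WT. Bulk RNA cannot tell fewer expressing cells from less RNA per cell.

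**Figure D1:**
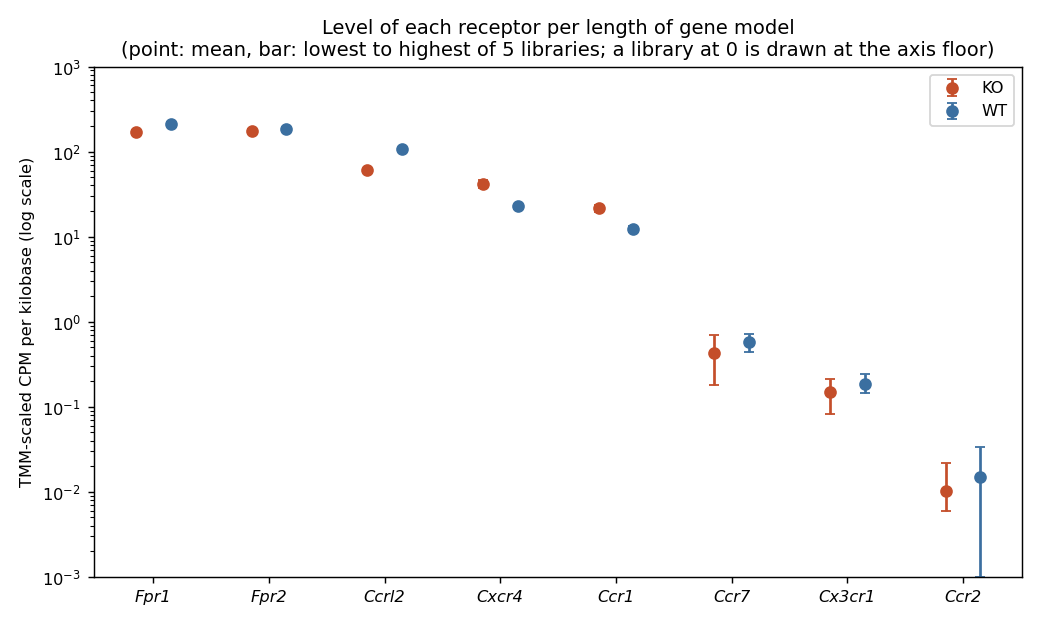
Level of each receptor in TMM-scaled CPM per kilobase of the gene length behind the authors' FPKM (log axis), KO left of WT. Points are means and bars run from the lowest to the highest of 5 libraries. Some of these lengths may be too long, so the order within a class is not settled. Fpr1 and Fpr2 lie near the top at 172 to 210, and Ccr7, Cx3cr1 and Ccr2 lie below 1.

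For the 5 abundant receptors, on which the results turn, the 250 bases before a transcription start are shown from RefSeq (build GRCm38.p6). RefSeq windows were matched by symbol for 7 of the 8 members; no window was matched for Ccr7. Capitals mark matches, on either strand, to any of 5 motifs. The motifs were an interferon-stimulated response element (GAAA and GAAA with 2 free bases between them, in 2.98% of 32851 such windows over all genes), a STAT site (TTCNNNGAA, 7.02%), an AP-1 site (TGANTCA, 6.75%), a loose NF-kB site (GGG and CC with 5 free bases between them, 45.8%) and a PU.1 core (GAGGAA, 23.3%).
Ccr1, chr9:123968693-123968942, minus strand: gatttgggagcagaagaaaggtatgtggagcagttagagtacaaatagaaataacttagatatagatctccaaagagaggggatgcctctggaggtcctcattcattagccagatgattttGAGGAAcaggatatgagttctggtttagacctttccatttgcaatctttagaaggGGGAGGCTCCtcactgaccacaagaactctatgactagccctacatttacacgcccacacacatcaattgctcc
Cxcr4, chr1:128592300-128592549, minus strand: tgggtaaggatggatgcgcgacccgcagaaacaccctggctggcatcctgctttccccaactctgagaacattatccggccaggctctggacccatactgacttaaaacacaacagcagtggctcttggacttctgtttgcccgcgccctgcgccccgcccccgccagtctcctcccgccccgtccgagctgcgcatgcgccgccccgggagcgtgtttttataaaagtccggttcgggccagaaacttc
Ccrl2, chr9:111057519-111057768, minus strand: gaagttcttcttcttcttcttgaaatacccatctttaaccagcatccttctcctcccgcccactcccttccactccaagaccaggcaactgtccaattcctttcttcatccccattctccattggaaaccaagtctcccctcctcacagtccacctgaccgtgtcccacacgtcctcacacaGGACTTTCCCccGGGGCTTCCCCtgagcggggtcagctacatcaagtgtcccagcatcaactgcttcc
Fpr1, chr17:17883940-17884189, minus strand: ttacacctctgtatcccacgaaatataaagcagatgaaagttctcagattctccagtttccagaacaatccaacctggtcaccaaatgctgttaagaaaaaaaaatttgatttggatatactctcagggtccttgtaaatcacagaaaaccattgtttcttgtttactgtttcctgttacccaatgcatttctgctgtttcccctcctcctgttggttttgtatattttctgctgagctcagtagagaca
Fpr2, chr17:17887574-17887823, plus strand: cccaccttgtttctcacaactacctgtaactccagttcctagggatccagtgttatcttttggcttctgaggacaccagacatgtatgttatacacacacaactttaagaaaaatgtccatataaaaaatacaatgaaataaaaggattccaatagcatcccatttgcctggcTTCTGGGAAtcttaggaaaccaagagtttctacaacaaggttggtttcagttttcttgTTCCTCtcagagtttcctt
In these windows Ccr1 held a loose NF-kB match at -74 to -65 from the start and a PU.1 core at -129 to -124. The Ccrl2 window held 3 loose NF-kB matches, at -68 to -59, -56 to -47 and -55 to -46, the last 2 overlapping. RefSeq lists 3 starts for Ccrl2, of which the most upstream is shown, and the windows of the other 2 held none of the 5 motifs. Fpr2 held a STAT match at -77 to -69 and a PU.1 core at -19 to -14. The windows of Cxcr4 and Fpr1 held no match. The bases just after the Cxcr4 start were not found in an annotated transcript of that gene, whereas those of the other windows shown were. A match is a string of letters and not evidence of binding.

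The comparison asked how receptor RNA in KO macrophages differed from that in WT macrophages after the same LPS and ATP stimulation. Ccr1 and Cxcr4 rose in KO by 1.74-fold and 1.82-fold, Ccrl2 fell by 1.79-fold and Fpr1 by 1.22-fold, and Fpr2, Ccr7 and Cx3cr1 did not pass the test. Of the 8 members, 7 passed the filter on low counts and were tested, and 2 were called higher and 2 lower (edgeR quasi-likelihood test, Benjamini-Hochberg adjusted p under 0.05 over 14436 genes). Of all genes tested 29.1% were called, 14.1% higher and 15% lower in KO, and with so few members their share cannot be set apart from this background. The median log2 fold change was -0.29 over the 7 members and 0.01 over all genes tested. Groups that did not overlap, reported below for single members, were found for 23.3% of all genes tested. In 10.9% KO lay above WT and in 12.4% below it.

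**Figure D2:**
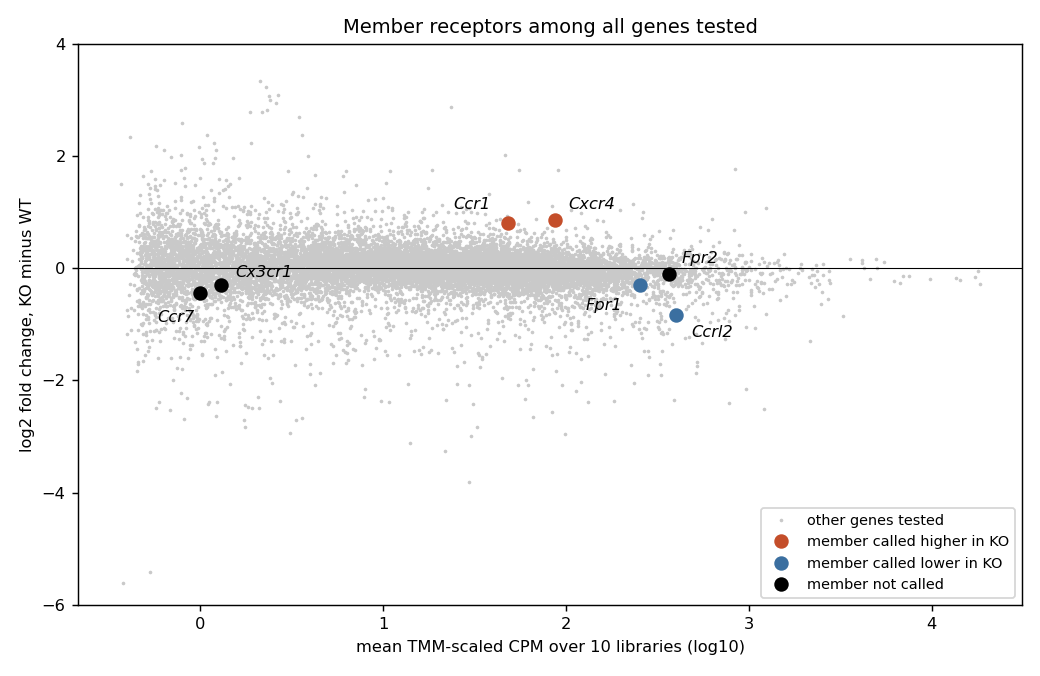
Log2 fold change (KO minus WT) of each gene tested against its mean TMM-scaled CPM over 10 libraries (log10 axis), with the member receptors marked and coloured by call. Cxcr4 (0.86) and Ccr1 (0.80) lie above zero and Ccrl2 (-0.84) below it, while Fpr2 (-0.10) lies near zero.

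Both receptors that rose bind chemokines and signal through G proteins. Ccr1 (ENSMUSG00000025804, chromosome 9, 123762161 to 123768729 as the table lists it) had 67.0, 55.9, 55.7, 60.2 and 66.6 CPM in KO 1 to KO 5, against 38.3, 33.7, 32.2, 37.0 and 34.0 CPM in WT 1 to WT 5. Every KO library lay above every WT library, the lowest KO value being 55.7 and the highest WT value 38.3 CPM. The means were 61.1 ± 5.53 CPM in KO and 35.0 ± 2.52 CPM in WT, a log2 fold change of 0.80 ± 0.07 (estimate ± SE) with an edgeR adjusted p of 5.68e-06.

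Cxcr4 (ENSMUSG00000045382, chromosome 1, 128515936 to 128520030) had 103, 117, 102, 115 and 126 CPM in KO 1 to KO 5, against 62.8, 57.0, 61.7, 64.0 and 63.5 CPM in WT 1 to WT 5. The groups did not overlap. KO averaged 113 ± 10.2 CPM and WT 61.8 ± 2.81 CPM, and the log2 fold change was 0.86 ± 0.06 (edgeR adjusted p = 1.56e-06). The spread between libraries was wider in KO, at 9.07% of the mean against 4.54% in WT. An absolute log2 change at least as large as that of Cxcr4 was found for 4.66% of the genes tested, and at least as large as that of Ccr1 for 5.44%.

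Ccrl2 moved the other way by a similar size. The gene (ENSMUSG00000043953, chromosome 9, 110883554 to 110886587) had 292, 286, 278, 297 and 288 CPM in KO 1 to KO 5, against 524, 530.0, 502, 484 and 534 CPM in WT 1 to WT 5. All KO values were below all WT values, with a gap between 297 CPM, the highest in KO, and 484 CPM, the lowest in WT. The means of 288 ± 7.05 CPM in KO and 515 ± 21.1 CPM in WT gave a log2 fold change of -0.84 ± 0.04 (edgeR adjusted p = 6.65e-08). Its values were tight in KO, where the SD was 2.45% of the mean.

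Ratios of raw counts within a library do not depend on scaling between libraries, and are given as descriptions chosen after the values were seen. The ratio of Ccr1 to Ccrl2 counts was 0.195 to 0.231 in KO libraries and 0.0636 to 0.0764 in WT libraries. The ratio of Cxcr4 to Ccrl2 was 0.351 to 0.438 in KO and 0.108 to 0.132 in WT. Neither ratio overlapped between genotypes, which follows from the separate ranges of these genes given above and adds no further evidence.

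**Figure D3:**
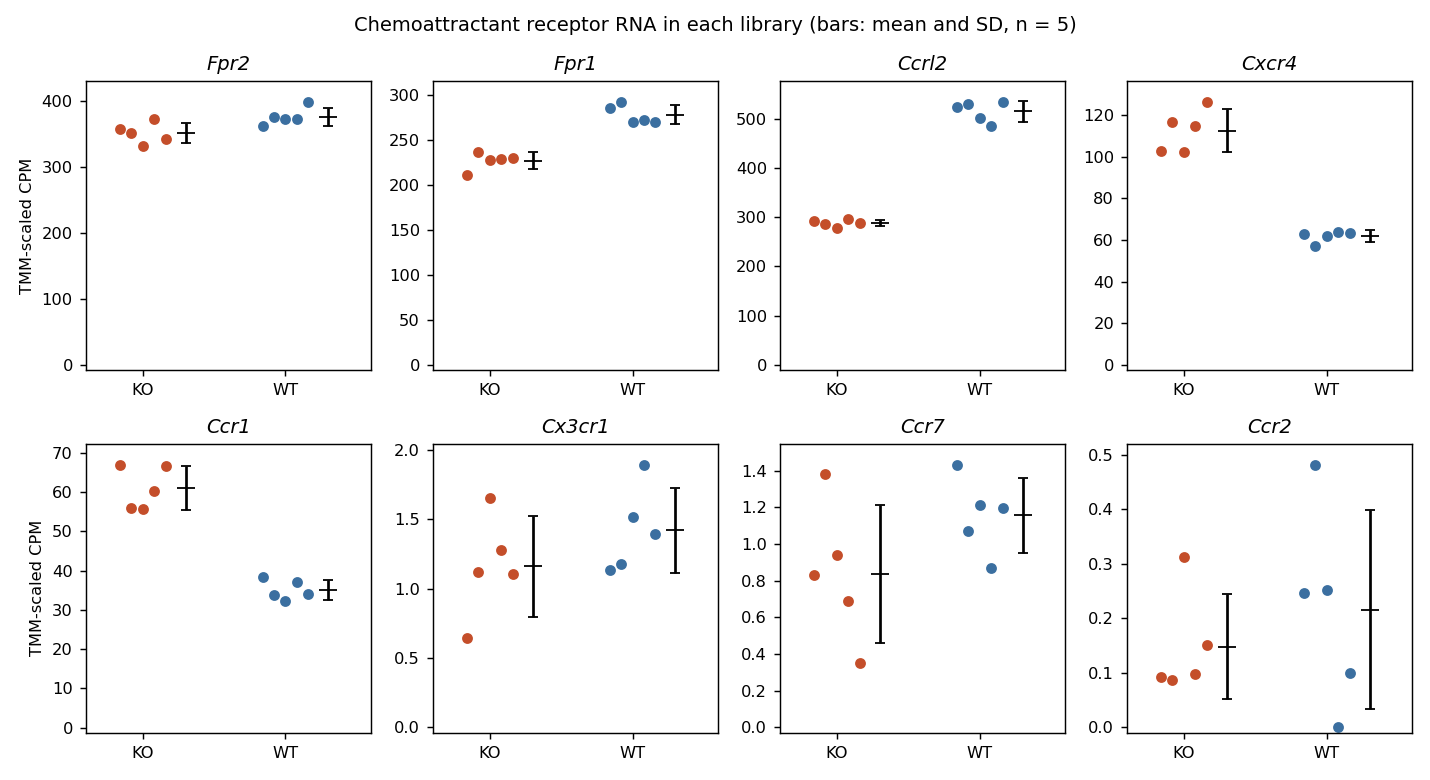
TMM-scaled CPM of each receptor in each library, KO left and WT right, with an axis of its own per gene; black marks show the mean and SD of 5 libraries. Groups are apart for Ccr1, Cxcr4, Ccrl2 and Fpr1, as for 23.3% of all genes tested, and overlap for Fpr2, Cx3cr1, Ccr7 and Ccr2.

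The formyl peptide receptors, whose genes lie next to each other on chromosome 17, differed by little. Fpr1 (ENSMUSG00000045551, 18096733 to 18104202) had 211, 237, 228, 229 and 230.5 CPM in KO 1 to KO 5, against 286, 292, 270.0, 273 and 271 CPM in WT 1 to WT 5. The groups did not overlap, and the means were 227 ± 9.70 CPM in KO and 278 ± 10.2 CPM in WT, a log2 fold change of -0.29 ± 0.04 (edgeR adjusted p = 0.000185). A change of at least this size was found for 28.8% of the genes tested.

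Fpr2 (ENSMUSG00000052270, 18108086 to 18114214) had 358, 351, 332, 372 and 343 CPM in KO 1 to KO 5, against 361, 376, 373, 373 and 398 CPM in WT 1 to WT 5. Only KO 4 reached the WT range, and the log2 fold change of -0.10 ± 0.04, with a 95% interval of -0.18 to -0.01, did not pass after adjustment (edgeR adjusted p = 0.0829). Fpr2 passed when KO 4 was left out (adjusted p = 0.0434), and with library totals in place of TMM its log2 fold change was 0.017. Within a library the ratio of Fpr1 to Fpr2 counts was 0.590 to 0.687 in KO and 0.680 to 0.792 in WT, ranges that overlapped. Of 1295 windows of 50 bases in the annotated Fpr2 transcripts, 408 also occurred in other genes, 368 of them in Gm5966 and 82 in Fpr3, so the counting could have split or lost some Fpr2 reads. Gm5966 had 0 to 32 and Fpr3 0 to 2 counts per library, against 6797 to 8146 for Fpr2.

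Formyl peptide receptors are also neutrophil genes, so markers of that cell type are given beside them. The 10 neutrophil markers summed to 72.7 to 78.5 CPM in KO and 69.5 to 78.5 CPM in WT. Most of that sum was Csf3r and S100a8, while Ly6g, Elane, Mpo and S100a9 had at most 3, 6, 1 and 3 counts in any library. Of the 3 tested, Camp and S100a8 were called higher in KO, and Csf3r, the most abundant, was at 50.4 ± 2.53 CPM in KO and 55.7 ± 3.47 CPM in WT and did not pass (log2 fold change -0.14 ± 0.05, edgeR adjusted p = 0.0621). The part of neutrophils in the Fpr1 and Fpr2 values was not tested.

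The 3 scarce receptors gave no call. Ccr7 (ENSMUSG00000037944, chromosome 11, 99035022 to 99045903) had 18, 32, 21, 14 and 7 counts in KO 1 to KO 5, against 29, 20, 24, 17 and 24 counts in WT 1 to WT 5. The groups overlapped, with a log2 fold change of -0.45 ± 0.29, a 95% interval of -1.09 to 0.19 and an edgeR adjusted p of 0.288. The 6 dendritic cell markers, listed because dendritic cells carry Ccr7, summed to 15.2 to 25.4 CPM in KO and 21.6 to 32.5 CPM in WT. Cd209a was at 0 in all libraries, and the part of these cells in the Ccr7 values was not tested.

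Cx3cr1 (ENSMUSG00000052336, chromosome 9, 119730682 to 119898945) had 14, 26, 37, 26 and 22 counts in KO 1 to KO 5, against 23, 22, 30, 37 and 28 counts in WT 1 to WT 5. The groups overlapped, and the log2 fold change was -0.29 ± 0.24 with a 95% interval of -0.82 to 0.23 (edgeR adjusted p = 0.414). The listed span of Cx3cr1 overlaps other genes, among them Wdr48 with 1013 to 1246 counts per library and Gorasp1 with 488 to 805. No strand setting is stated, so some reads of such genes may have been counted for Cx3cr1, or the reverse. Ccr2 (ENSMUSG00000049103, chromosome 9, 123901987 to 123913594) had 2, 2, 7, 2 and 3 counts in KO 1 to KO 5, against 5, 9, 5, 0 and 2 counts in WT 1 to WT 5, or 16 counts in all KO libraries and 21 in all WT libraries. It did not pass the filter, and a difference was not detectable at this depth. The 6 monocyte markers, given because Ccr2 marks inflammatory monocytes, summed to 126 to 186 CPM in KO and 165 to 219 CPM in WT. Of these, 3 fell, where 15% of all genes tested were called lower, 2 were not called and 1 was not tested. The most abundant, Ly6c2, was among those not called, at 102 ± 25.1 CPM in KO and 79.7 ± 19.5 CPM in WT.

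The ligands of these receptors were taken from a list of 17 genes, of which 14 were tested, 7 fell and 4 rose, where 15% of all genes tested were called lower and 14.1% higher. The median log2 fold change of the list was -0.34, against 0.01 over all genes tested. For CCR2, whose own RNA was near the floor, the 3 listed ligands fell most. Ccl2 was at 222 ± 15.1 CPM in KO and 811 ± 51.8 CPM in WT, Ccl7 at 20.9 ± 5.11 CPM in KO and 87.9 ± 5.49 CPM in WT, and Ccl12 at 0.328 ± 0.253 CPM in KO and 2.10 ± 0.603 CPM in WT. Their log2 fold changes were -1.87 ± 0.06 (Ccl2), -2.07 ± 0.14 (Ccl7) and -2.63 ± 0.41 (Ccl12). Ccl12 was scarce, at 1 to 15 counts per library in KO and 30 to 62 in WT, with KO 5 (1 count) under the floor of 3 counts.

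Of the 5 ligands listed for CCR1, 4 fell and 1 rose while the receptor itself rose. Ccl3 was at 607 ± 49.2 CPM in KO and 1079 ± 72.8 CPM in WT, Ccl5 at 1924 ± 220.2 CPM in KO and 3008 ± 163 CPM in WT, and Ccl6 at 131 ± 8.20 CPM in KO and 168 ± 9.95 CPM in WT; Ccl7 is given above. Ccl9, which in the mouse attracts cells through CCR1, was at 439.8 ± 28.6 CPM in KO and 302 ± 16.9 CPM in WT, a rise of 0.54 ± 0.05 on the log2 scale (edgeR adjusted p = 1.34e-05). The direction of Ccl9 was that of its receptor, and those of the other ligands were opposite.

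For CXCR4, the ligand gene Cxcl12 did not pass (11.6 ± 4.01 CPM in KO, 14.5 ± 1.31 CPM in WT, edgeR adjusted p = 0.251), and Mif, a cytokine that can also bind CXCR4, rose by 0.38 ± 0.05 on the log2 scale to 199 ± 11.5 CPM in KO, against 153 ± 6.68 CPM in WT. Chemerin is encoded by Rarres2 and is bound by CCRL2. Rarres2 had 2.17, 2.68, 1.66, 1.67 and 1.81 CPM in KO 1 to KO 5, against 0.740, 0.963, 0.556, 0.922 and 0.547 CPM in WT 1 to WT 5, with no overlap and a log2 fold change of 1.42 ± 0.22 (edgeR adjusted p = 0.000415). Receptor and ligand thus moved in opposite directions, with the ligand at a low level. Stromal cells are known sources of chemerin and CXCL12, and the 7 fibroblast and mesothelial markers summed to 545 to 671 CPM in KO and 487 to 538 CPM in WT. Most of that sum was Col1a1 and Col1a2. In KO 3 were called higher (Col1a1, Col1a2, Dcn) and 2 lower, where 14.1% and 15% of all genes tested were. The lower ones were Pdgfra and Upk3b, at log2 fold changes of -1.01 ± 0.08 and -2.69 ± 0.26, and Msln and Wt1 were not called. The part of stromal cells in the values of Rarres2 and Cxcl12 was not tested.

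Among the ligands of the formyl peptide receptors, Anxa1, which encodes annexin A1, fell by 0.37 ± 0.04 on the log2 scale to 214 ± 1.56 CPM in KO, against 278 ± 13.6 CPM in WT. Camp, the gene of the peptide CRAMP, rose by 0.53 ± 0.14 (edgeR adjusted p = 0.0133) at a low level, 3.27 ± 0.574 CPM in KO and 2.25 ± 0.204 CPM in WT, and lost its call without KO 1 and KO 3 (adjusted p = 0.0775). Saa3, a serum amyloid A gene, was abundant at 5724 ± 179 CPM in KO and 5299.6 ± 441 CPM in WT and did not pass (edgeR adjusted p = 0.151). Saa1 did not pass either (edgeR adjusted p = 0.0564). It had 2.90 CPM in KO 1, 3.75 CPM in KO 2 and no more than 0.671 CPM in KO 3 to KO 5, against 0.154 to 0.803 CPM in WT. For CCR7 and CX3CR1 no ligand was tested, since Ccl19 and Ccl21a had no counts and Cx3cl1 had 2 to 13 counts per library.

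**Figure D4:**
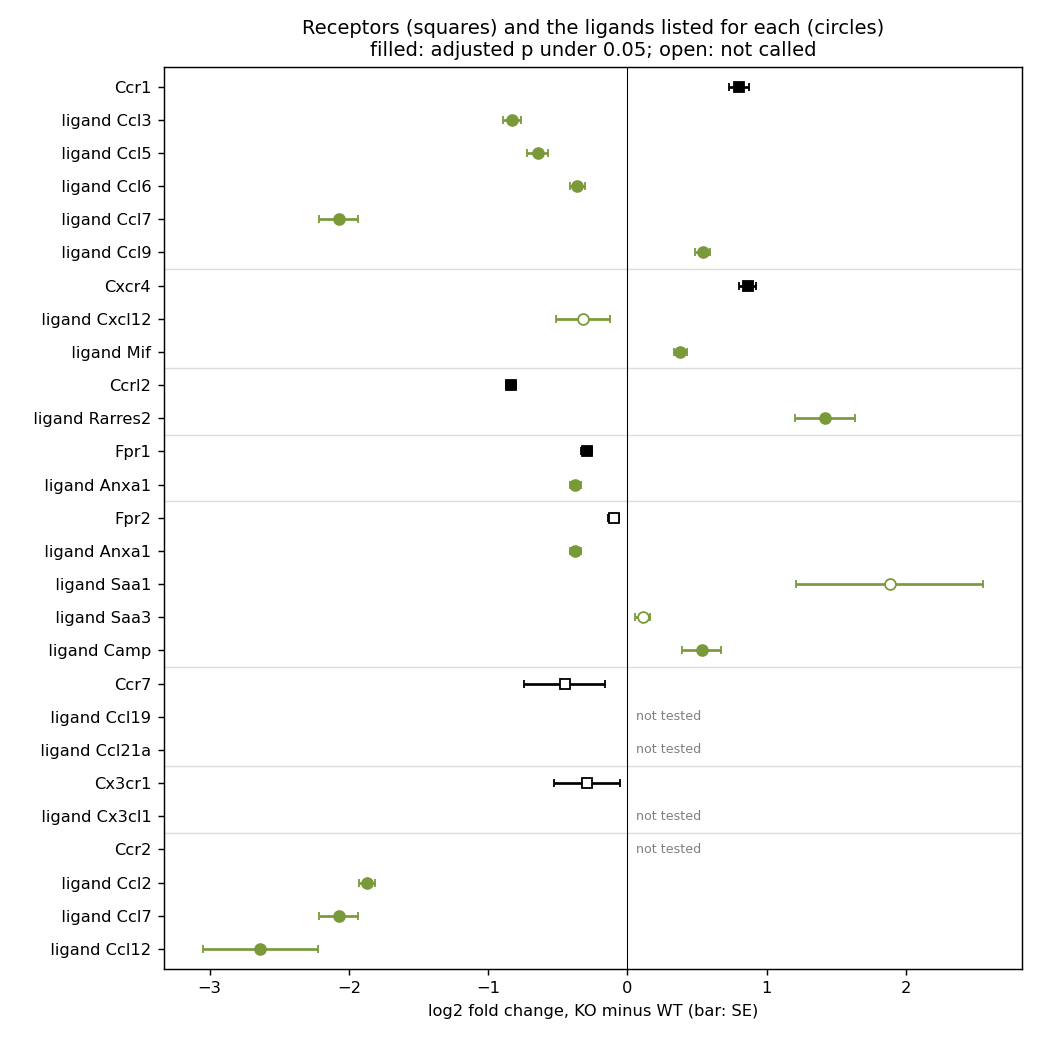
Log2 fold change (KO minus WT) with its SE for each receptor (squares) and the ligands listed under it (circles), filled where the adjusted p was under 0.05. The ligands under Ccr2 lie from -2.63 to -1.87, and Rarres2 (1.42) lies opposite to Ccrl2 (-0.84).

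Other chemoattractant receptors were compared by a list of 32 genes, of which 22 had a count in some library and 10 were tested. None rose, 3 fell and 7 did not pass, so that the calls were about as frequent as the 29.1% over all genes tested. C3ar1, the receptor of the complement fragment C3a, was at 214 ± 14.5 CPM in KO and 547 ± 18.7 CPM in WT, and fell by 1.36 ± 0.05 on the log2 scale. Ptafr, the receptor of platelet-activating factor, fell by 0.79 ± 0.04 to 240.1 ± 14.5 CPM in KO, against 415 ± 3.64 CPM in WT. Cmklr1, the receptor through which chemerin signals, was at 179 ± 18.2 CPM in KO and 182 ± 9.53 CPM in WT and did not pass (edgeR adjusted p = 0.809), unlike Ccrl2 and Rarres2.

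No window of 50 bases in the annotated transcripts of Ccr1, Ccr7, Ccrl2 or Cxcr4 occurred in another gene, whereas 129 of 6758 windows of Ccr2 did.

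Genes that carry or end the receptor signal gave calls in both directions. Of 30 listed, all tested, 11 fell, 4 rose and 15 did not pass, where 15% of all genes tested were called lower and 14.1% higher; the median log2 fold change was -0.10, and with library totals 8 fell and 8 rose and the median was 0.02. The largest change in the list was that of Rgs1, a regulator of G protein signalling (chosen after its values were seen), at 26.5 ± 10.7 CPM in KO and 64.9 ± 29.7 CPM in WT. Its log2 fold change was -1.29 ± 0.31 (edgeR adjusted p = 0.00847), and its call was lost without KO 1 and KO 3 (adjusted p = 0.0552). The WT mean of Rgs1 was raised by WT 1, at 118 CPM against 48.3 to 56.0 CPM in WT 2 to WT 5. Without WT 1 Rgs1 kept its call at a log2 fold change of -0.95, smaller in size than the 1.13 of Rgs2, described below. Rgs2 also changed more than Rgs1 without KO 1 and KO 3, so the rank of Rgs1 depends on the libraries kept. The Gi subunit genes Gnai2 and Gnai3 were not called, at log2 fold changes of -0.04 ± 0.03 and -0.01 ± 0.04 (chosen after their values were seen). By smallest p, Rgs14, of the same family as Rgs1, fell by 0.66 ± 0.05 and Pik3r5, the regulatory subunit of phosphoinositide 3-kinase gamma, by 0.37 ± 0.04. Rgs2, also of the family of Rgs1, rose by 1.11 ± 0.11 to 7.69 ± 1.26 CPM in KO, against 3.55 ± 0.0857 CPM in WT. Grk5, a kinase that phosphorylates activated receptors, rose by 0.52 ± 0.06.

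The genes whose profile over the 10 libraries lay nearest to each called receptor were found by the root mean square difference in centred log2 CPM. For Cxcr4 they were Glul (0.0491) and Smpdl3b (0.0586), and for Ccr1 they were Lpl (0.0923) and Sphk1 (0.101). For Ccrl2 they were Msi2 (0.0505) and Acod1 (0.0524), and for Fpr1 they were Fgd3 (0.0315) and Rbm15 (0.0358). Acod1, which makes itaconate in activated macrophages, was at 2321 ± 115 CPM in KO and 4199 ± 342 CPM in WT, and Lpl, which encodes lipoprotein lipase, at 809 ± 49.7 CPM in KO and 441 ± 28.8 CPM in WT.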

How the data were processed

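The authors deposited whole-number counts per gene for 10 libraries, per the file headers, and FPKM beside them. The submitters' processing notes name CASAVA 1.8, TopHat2 2.0.6 and the builds mm10 and GRCm39, without a role. The gene counter, its annotation and its strand setting were not given in the sources used here. Positions equalled those of a GRCm38 annotation in 1430 of 52073 shared identifiers, and the table's own coordinates are used. The authors' FPKM of the WT libraries served only to recover gene lengths; 5 FPKM columns headed SI were not used.

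Counts were tested with edgeR 4.0.16 in R 4.3.3 (quasi-likelihood F test, KO minus WT, TMM scaling, low counts removed by filterByExpr at min.count 10). P-values were adjusted over the 14436 remaining genes, with 99.87% of all counts. SEs were derived from each estimate and its F statistic. The procedure was tested on simulated counts. Levels per kilobase divide TMM-scaled CPM by the recovered length, which for Ccrl2 and Ccr2 exceeded the listed span of the gene. Group values are means ± SD. No libraries were duplicates (chi-square per gene 11.67 to 23.44 within genotypes, 50.26 to 71.98 between).

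Members and lists were chosen with earlier results of these data known. Named were all members, Jaml, called ligands and other receptors, the 4 called signalling genes with the smallest p, and for each called member the 2 nearest profiles, passing over predicted genes (Gm or Rik symbols); others are named for context, after their values were seen. Of the listed genes called, 1 is not reported here. Shared windows were found in GENCODE M21 transcripts. Alternatives were other scalings (DESeq2 size factors, library totals), filters, the replicate number as a block, each library left out, robust edgeR, the DESeq2 1.42.0 Wald test, limma-voom (limma 3.58.1) and, added after the data were seen, a fit without KO 1 and KO 3.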

Additional observations from a re-analysis of the deposited data

Results flagged for a closer look

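C5ar1, the main receptor of the complement fragment C5a and a gene of the list of other receptors, had a library far from the rest in both genotypes. It was at 11.1 CPM in KO 3, against 76.9 to 89.2 CPM in the other 4 KO libraries, and at 19.4 CPM in WT 3, against 128 to 138 CPM in the other 4 WT libraries. These were the 2 groups past the limit for a single outlying library among 70 groups of 5 libraries examined (35 genes in 2 genotypes), and chance passes it in about 1 of 20 groups. Of the signalling list only the 4 called genes with the smallest p were examined. Rgs1, whose WT 1 value stood apart, was not among them. C5ar1 was not called, with an edgeR adjusted p of 0.422 and 0.152 to 0.559 with 1 library left out. With the replicate number as a block, which ties KO 3 to WT 3, its adjusted p was 0.000252 at a log2 fold change of -0.67.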

How the results depend on the processing

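Ccr1, Cxcr4, Ccrl2 and Fpr1 kept direction and call under all 19 alternatives, with log2 fold changes of 0.77 to 0.92, 0.82 to 0.98, -0.85 to -0.72 and -0.31 to -0.18. The number of members called higher was 2 throughout, and that called lower was 2 except without KO 4, where Fpr2 made it 3. With library totals the median change over every gene tested was 0.12 on the log2 scale, the calls were 4231 higher and 1361 lower instead of 2036 and 2164, and Fpr2 turned to 0.017 (adjusted p = 0.745). Ccr7 and Cx3cr1 were not called under the 18 alternatives that tested them (adjusted p 0.0825 to 0.476 and 0.182 to 0.708). Ccr2 was tested without a filter (log2 fold change -0.48 ± 0.68, edgeR adjusted p = 0.708). With the replicate number as a block the calls were 1765 higher and 2015 lower, 3780 in all against 4200, and no member's call changed. Over all genes tested, same-numbered libraries did not deviate together (correlations -0.114 to 0.184), and only KO 5 correlated best with its own number. Such correlations cannot settle whether the numbers pair samples, since a shared deviation may touch few genes. No label gives a pairing, and C5ar1 was low in both KO 3 and WT 3. Of 29 called list genes 24 kept their call under every alternative that tested them. Ccr2, Ccr7 and Cx3cr1 are limited by depth, at 0 to 37 counts per library.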
